A study of Homo sapiens with 3 samples.

Results

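The genes described here are the replication-dependent histone genes of CaSki cells, taken as every gene symbol that starts with HIST and a cluster number from 1 to 4 followed by H. This rule found 71 of the 23277 symbols in the expression tables, and used no measured value. By the symbol, 6 belong to the linker histone H1, 17 to H2A, 20 to H2B, 13 to H3 and 15 to H4. The HIST1 cluster holds 56 of them, HIST2 holds 11, HIST3 holds 3 and HIST4 holds 1. RefSeq places HIST1 on chromosome 6, HIST2 and HIST3 on chromosome 1 and HIST4 on chromosome 12, and lists 3 of the 71 as pseudogenes (HIST1H2APS1, HIST2H2BA and HIST2H2BC).

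DNA is wound around octamers of the core histones H2A, H2B, H3 and H4, and H1 binds the linker DNA between them. Replication-dependent histone genes supply these proteins in S phase, when newly made DNA has to be packaged. Their usual messages carry no poly(A) tail and end just after a short stem-loop, which is bound by SLBP, the stem-loop binding protein, whereas some of the genes can also give longer, polyadenylated messages, known above all from cells that have stopped dividing.

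CaSki is an established cell line, grown from an epidermoid carcinoma of the cervix and carrying human papillomavirus. Total RNA was sequenced from 3 groups. The first carried FLAG-tagged NANOG in the pMSCV retroviral vector and received an siRNA against HDAC1. In the second, the same NANOG cells received an siRNA against GFP, the control siRNA. The third carried the empty pMSCV vector and received the GFP siRNA. With 1 library in each group there is no replicate check on any difference, and no test, standard error or interval is given. The labels do not say whether the transduced cells were a pool or a clone.

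NANOG, a homeobox transcription factor of pluripotent cells, was at 325 FPKM in the NANOG cells given HDAC1 siRNA, 298 FPKM in the NANOG cells given GFP siRNA and 0.0357 FPKM in empty vector cells (FPKM are fragments scaled to transcript length and to all mapped fragments). HDAC1, a histone deacetylase, was at 12.8 FPKM with HDAC1 siRNA, 108 FPKM with GFP siRNA in NANOG cells and 19.02 FPKM in empty vector cells, so the NANOG library with GFP siRNA was the one that stood apart in HDAC1. Of 9 epithelial and squamous markers, 8 averaged at least 1 FPKM, and of 11 markers of fibroblasts, leukocytes and endothelium none did. The largest value among those 11 was COL1A2, a fibrillar collagen gene, at 0.948 FPKM in the NANOG cells given GFP siRNA. The epithelial list summed to 4100 FPKM with HDAC1 siRNA, 4782 FPKM with GFP siRNA in NANOG cells and 4090 FPKM in empty vector cells.

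The stem-loop was looked for in the GENCODE release 29 transcripts of the 71 genes, because it marks the usual end of these messages. It was found in at least 1 transcript model of 31 members, and in 41 of all 57133 genes (0.0718%). Windows of 26 bases around it are shown for members described below, with the 4-base loop in capitals and 5 flanking bases on each side.
HIST1H2AC: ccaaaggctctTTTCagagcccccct
HIST1H2BC: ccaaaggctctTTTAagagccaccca
HIST1H3E: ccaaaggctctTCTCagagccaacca
HIST1H4H: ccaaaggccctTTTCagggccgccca
HIST4H4: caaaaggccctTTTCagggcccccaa
The search allowed only GGCTCT or GGCCCT as the opening arm, so no other could be found. The loop and the closing arm were also limited to a few forms, and a member with another form counts as having no stem-loop. Within these limits the opening arm was shared by class. GGCTCT opened the stem in all of the H2A, H2B and H3 members with a hit, and GGCCCT in all of the H4 members with one. The loop TTTC was the most frequent, with TTTA in HIST1H2BC, HIST1H2BD, HIST1H2BF, HIST1H3G and HIST3H3 and TTTT in HIST1H4I, HIST2H4A and HIST2H4B. HIST1H3E had TCTC. The closing arm was not shared in the same way, since HIST1H2AG and HIST2H2BC had AGGGCC, as the H4 members did, where the other H2A, H2B and H3 members with a hit had AGAGCC.

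Listed levels were low for most of the family. The capture of messages without a poly(A) tail in these libraries was not tested, so a low FPKM or class sum need not mean few messages. Over the 3 libraries 27 of 71 members had a mean of at least 1 FPKM, 33 were lower and 11 were listed at 0 in every library. Nearest to this limit, HIST1H2AM lay inside at a mean of 1.26 FPKM, and HIST3H2BB lay outside at 0.989 FPKM. A pair of genes carried most of the signal. HIST1H2BK, an H2B gene, was at 151 FPKM in the NANOG cells given HDAC1 siRNA, 214 FPKM in the NANOG cells given GFP siRNA and 162 FPKM in empty vector cells. HIST1H1C, which encodes a linker histone, stood at 159, 196 and 153 FPKM in that order. Together they made up 62.4%, 67.1% and 68.1% of the summed FPKM of all members. Members of 1 class are close in coding sequence, so reads may have been shared out among them, and the level of a single gene is less certain than that of a class.

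The class sums differed widely. H2B summed to 238 FPKM in the NANOG cells given HDAC1 siRNA, 316 FPKM in the NANOG cells given GFP siRNA and 234 FPKM in empty vector cells. H1 summed to 162, 199.6 and 156 FPKM and H2A to 59.9, 60.9 and 51.0 FPKM in that order. H3, at 17.8, 16.2 and 13.5 FPKM, and H4, at 19.02, 18.9 and 8.74 FPKM, were the lowest of the classes. H1 and H2B were thus high in the NANOG library with GFP siRNA alone, while H4 was about equal in the NANOG libraries and lowest in empty vector cells.

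**Figure D1:**
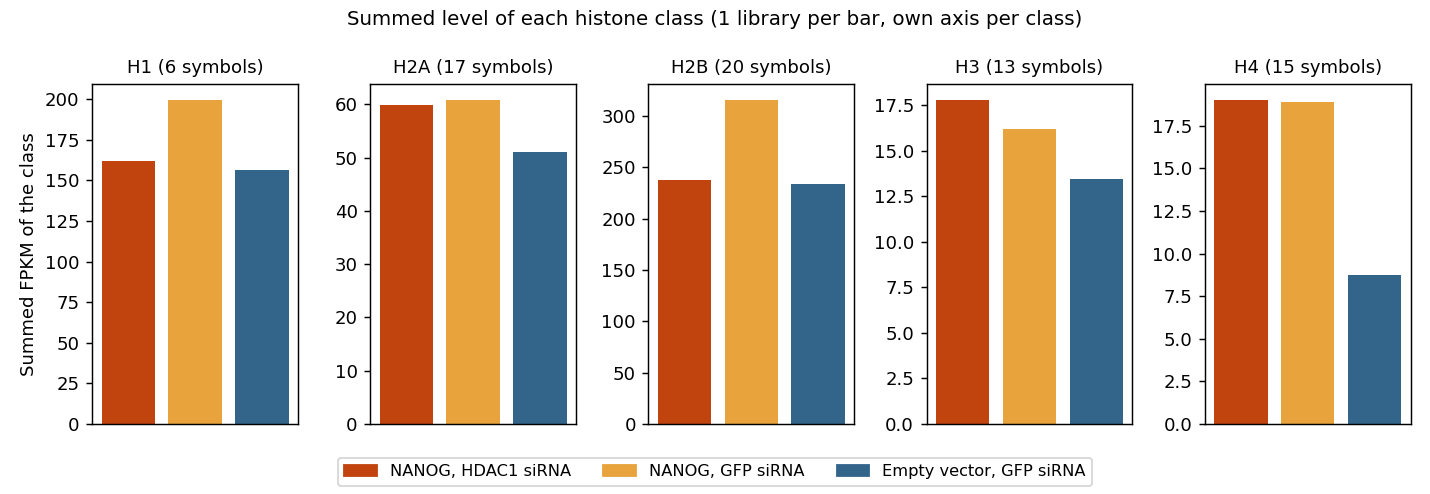
Summed FPKM of the members of each histone class, 1 bar per library and a separate axis from 0 for each class. H1 and H2B are highest in NANOG cells with GFP siRNA (199.6 and 316 FPKM), whereas H4 reaches 19.02 and 18.9 FPKM in the NANOG libraries against 8.74 FPKM in empty vector cells.

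The first comparison asked what differed with NANOG in cells that all had GFP siRNA. Most measured histone genes stood higher with NANOG, and 1 of them, the H4 gene HIST1H4H, by more than 2-fold. By summed level the H4 class had the highest ratio of the 5 classes, 2.16, although single H2B and H3 genes stood above its other members. Differences were taken as log2(FPKM + 1), which understates those of low genes. Of the 27 members with a mean of at least 1 FPKM, 23 (85.2%) lay above 0, where 49.2% of all 11406 genes compared did. Their median difference was 0.31, against -0.01 over all genes. A single member was at least 2-fold higher and 0 were at least 2-fold lower, where 0.675% and 1.22% of all genes were. At 1.5-fold, 6 members were higher and 0 lower, against 3.47% and 5.27% of all genes. Summed over all 71 members, the level was 611 FPKM with NANOG and 463 FPKM with empty vector, a ratio of 1.32. A higher value in such bulk RNA can come from more cells in S phase or from more RNA per cell, which cannot be told apart.

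HIST1H4H was the member past 2-fold. It stood at 11.3 FPKM in the NANOG cells given GFP siRNA and 4.36 FPKM in empty vector cells, a difference of 1.20. With HDAC1 siRNA it was at 9.38 FPKM, so both NANOG libraries lay above the empty vector library. HIST1H4E, a second H4 gene of the same cluster, was at 2.26 FPKM with NANOG and 1.08 FPKM with empty vector (0.65), and at 2.28 FPKM with HDAC1 siRNA. HIST4H4 was at 1.18 FPKM with NANOG and 0.666 FPKM with empty vector (0.39), which was below the differences of several H2B genes. The H4 proteins of the different genes are the same or nearly so, so these messages add to 1 pool of H4.

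Among the H2B genes HIST1H2BC was at 16.5 FPKM with NANOG and 8.12 FPKM with empty vector (0.94). HIST1H2BJ was at 18.8 FPKM with NANOG and 9.60 FPKM with empty vector (0.90). HIST2H2BE, whose message is known to be polyadenylated in differentiated cells, was at 9.39 and 5.94 FPKM in that order (0.58). These differences were larger than those of the more abundant HIST1H2BK (0.40) and HIST1H2BD (0.27; 35.0 FPKM with NANOG and 28.9 FPKM with empty vector). HIST1H2BN (-0.16) and HIST1H2BO (-0.02) were the H2B members below 0, though HIST1H2BO was about equal in both libraries.

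Of the H2A genes, HIST1H2AG was at 5.22 FPKM with NANOG and 3.01 FPKM with empty vector (0.63), and HIST1H2AC at 20.1 and 14.1 FPKM (0.49). HIST2H2AC went the other way, at 1.55 FPKM with NANOG and 2.55 FPKM with empty vector (-0.48), the most negative difference of the 27. Among the H3 genes HIST1H3D was at 5.31 FPKM with NANOG and 2.51 FPKM with empty vector (0.84), and HIST1H3E, at 2.20 and 2.80 FPKM (-0.25), was the H3 member below 0. Both measured H1 genes stood higher, HIST1H1C by 0.35 and HIST1H1E by 0.30 (3.07 FPKM with NANOG and 2.30 FPKM with empty vector).

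**Figure D2:**
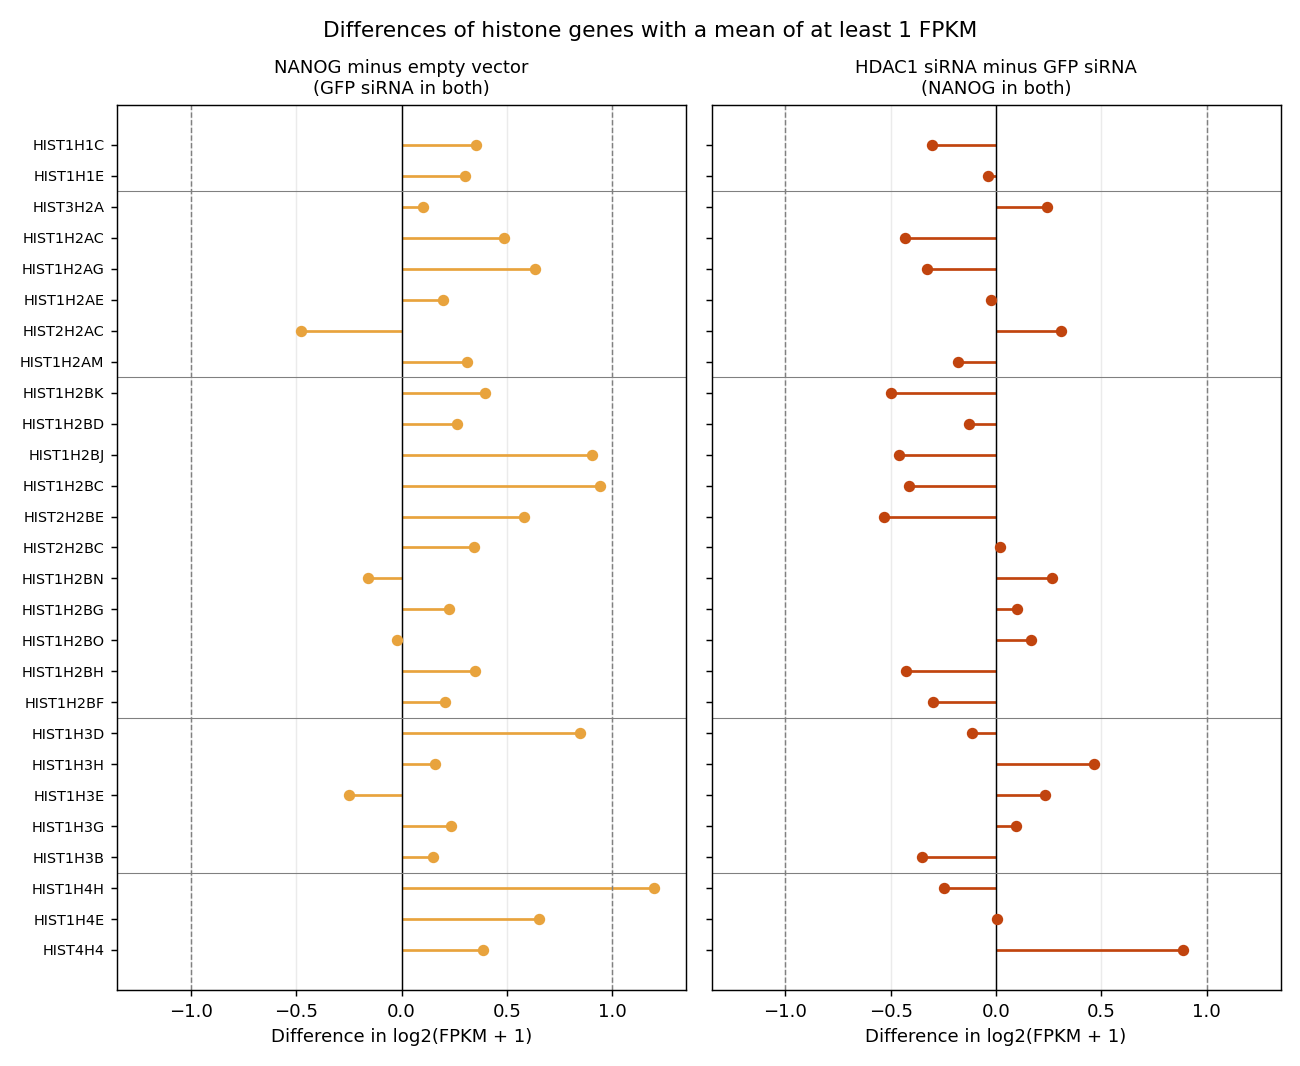
Difference in log2(FPKM + 1) of each of the 27 members with a mean of at least 1 FPKM, grouped by class, for NANOG minus empty vector (left) and HDAC1 siRNA minus GFP siRNA in NANOG cells (right); dashed lines mark 2-fold. On the left 23 members lie above 0 and HIST1H4H (1.20) passes 2-fold, and on the right 11 lie above 0 with HIST4H4 (0.89) the highest. The panels share the NANOG library with GFP siRNA, so a high value there moves a gene right in the left panel and left in the right one.

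The second comparison asked what HDAC1 siRNA changed in NANOG cells. Most of the abundant H1, H2A and H2B genes stood lower with HDAC1 siRNA, and several low H3 and H4 genes stood higher, all by less than 2-fold on the log2(FPKM + 1) scale. Of the 27 members 11 (40.7%) lay above 0, against 53.4% of all genes, and 0 were 2-fold higher or lower, against 0.0877% and 0.21%. At 1.5-fold 1 was higher and 0 lower, against 0.684% and 1.43% of all genes. Their median was -0.11, against 0.01 over all genes, but 0.05 with 15 members above 0 and 12 below it after rescaling to TPM, which moved the median of all genes to 0.18. Small RNA symbols held 16.0% of all FPKM with HDAC1 siRNA and 23.1% with GFP siRNA, which enters that rescaling. With TPM taken without them the members' median was -0.07, with 13 above 0 and 14 below it, and the median of all genes was 0.07. All members summed to 497 FPKM with HDAC1 siRNA and 611 FPKM with GFP siRNA, a ratio of 0.812, and the ratio was 0.928 without HIST1H2BK and HIST1H1C.

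HIST2H2BE had the most negative difference, at 6.18 FPKM with HDAC1 siRNA and 9.39 FPKM with GFP siRNA (-0.53). HIST1H2BK followed (-0.50), then HIST1H2BJ at 13.4 and 18.8 FPKM (-0.46), HIST1H2AC at 14.7 and 20.1 FPKM (-0.43), HIST1H2BH at 1.88 and 2.87 FPKM (-0.43) and HIST1H2BC at 12.2 and 16.5 FPKM (-0.41). All of these were highest in the NANOG library with GFP siRNA. HIST1H2BK and HIST1H2BH were lowest with HDAC1 siRNA, and the others in empty vector cells. Of the 27 members 16 were highest in that library, against 33.1% of all genes.

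HIST4H4, the lone H4 gene of its cluster, had the largest positive difference. It was at 3.02 FPKM with HDAC1 siRNA and 1.18 FPKM with GFP siRNA (0.89), a plain FPKM ratio of 2.57. With a pseudocount of 0.5 FPKM in place of 1 FPKM the difference was 1.07, past 2-fold. The high value of HIST4H4 with HDAC1 siRNA also carried it past the limit of a mean of 1 FPKM. HIST1H3H was at 5.21 FPKM with HDAC1 siRNA and 3.50 FPKM with GFP siRNA (0.47), and HIST3H2A, the most abundant H2A gene, at 29.8 and 25.04 FPKM (0.24). HIST1H4H (-0.25) and HIST1H4E (0.01) differed less, and neither came near its empty vector level.

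Between NANOG cells with HDAC1 siRNA and empty vector cells the labels differ in both the vector and the siRNA. The largest differences were those of a pair of H4 genes, HIST4H4 and HIST1H4H. HIST4H4 was at 3.02 FPKM and 0.666 FPKM in that order (1.27), and HIST1H4H at 9.38 and 4.36 FPKM (0.95). HIST1H3D (0.73), HIST1H4E at 2.28 and 1.08 FPKM (0.66) and HIST1H3H (0.63) followed, while HIST1H1C (0.05), HIST1H2AC (0.05) and HIST1H2BK (-0.10) differed little. Of the 27 members 21 lay above 0, against 49.8% of all genes, with a median of 0.17 against -0.00. The member past 2-fold was HIST4H4, where 0.368% of all genes were 2-fold higher, and 0 members were 2-fold lower, against 0.824%. HIST4H4 reached the limit of a mean of 1 FPKM through its value with HDAC1 siRNA, so its call is not independent of that filter. At 1.5-fold 5 members were higher and 0 lower, against 1.78% and 3.46% of all genes. In 19 of the 27 both NANOG libraries lay above empty vector, against 38.7% of all genes; these comparisons share the empty vector library, so they are not independent of each other.

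The remaining measured members lay between 1 and 6 FPKM. HIST2H2BC, an annotated pseudogene, was at 5.48 FPKM with HDAC1 siRNA, 5.39 FPKM with GFP siRNA in NANOG cells and 4.04 FPKM in empty vector cells. Among the H2B genes HIST1H2BG stood at 4.55, 4.18 and 3.43 FPKM in that order, HIST1H2BN at 4.60, 3.67 and 4.20 FPKM, HIST1H2BO at 3.04, 2.59 and 2.64 FPKM, and HIST1H2BF at 1.11, 1.59 and 1.25 FPKM. HIST1H2AE stood at 3.65, 3.72 and 3.12 FPKM, and HIST1H2AM at 1.22, 1.52 and 1.04 FPKM. The order of the libraries thus varied from gene to gene. In H3, HIST1H3G stood at 2.60, 2.38 and 1.87 FPKM and HIST1H3B at 1.28, 1.91 and 1.63 FPKM, the most negative difference between HDAC1 siRNA in NANOG cells and empty vector (-0.20). The values of HIST1H3B also fitted 4, 6 and 5 whole steps, those of HIST1H3E 5, 4 and 5, those of HIST1H2BO 7, 6 and 6 and those of HIST1H2BN 10, 8 and 9. A step is the largest amount of FPKM of which all 3 values of a gene are whole multiples. These steps were 0.321, 0.549, 0.432 and 0.458 FPKM in that order, above the median of 0.140 FPKM over all members fitted. A step of these 4 genes may thus hold several fragments, and a fit to whole steps can also be accidental. How many fragments their differences rest on is unknown, and their direction is not taken as reliable.

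**Figure D3:**
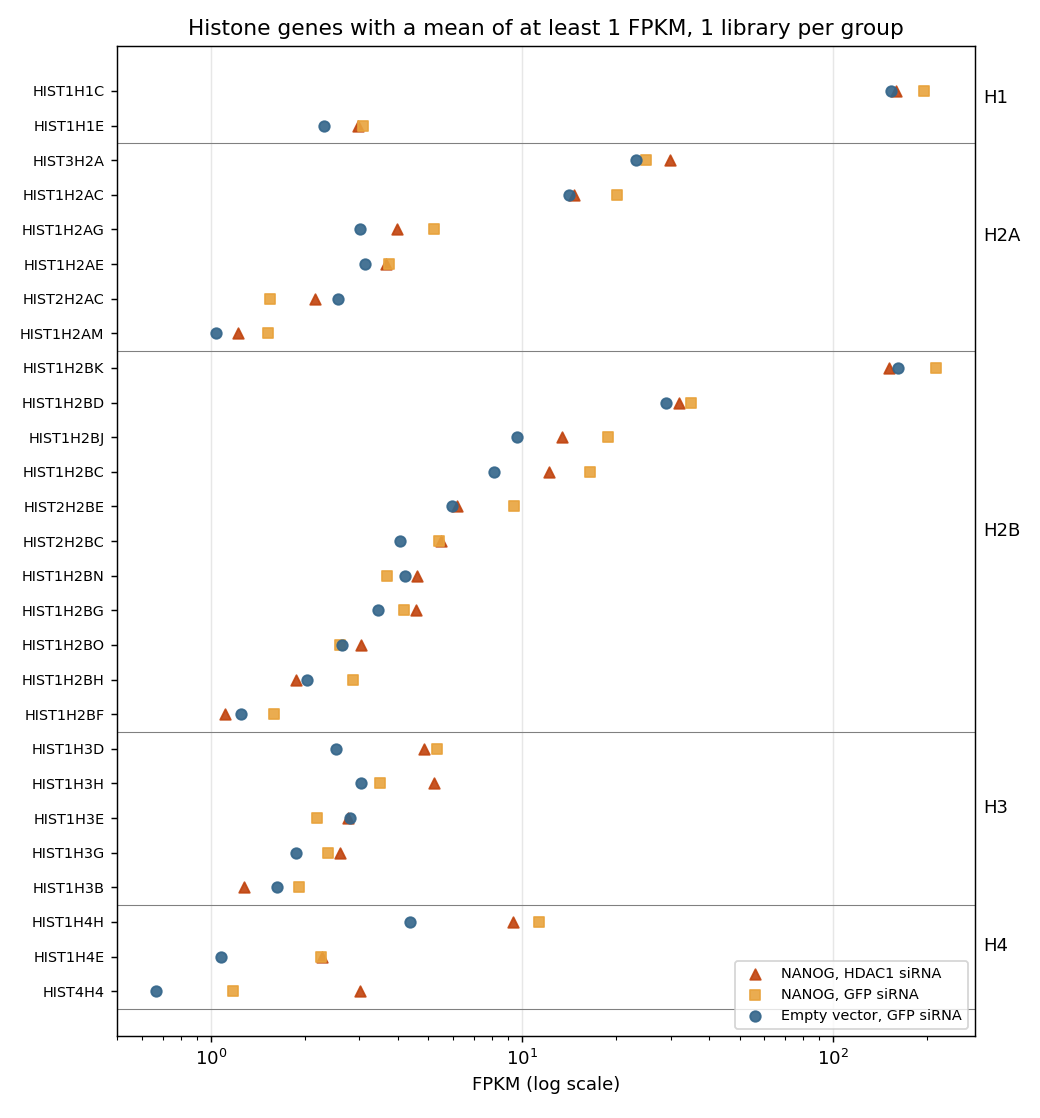
FPKM on a log axis of the 27 members with a mean of at least 1 FPKM, grouped by class and ordered by mean, with 1 symbol per library. HIST1H2BK and HIST1H1C lie above 150 FPKM in every library, and the empty vector library is lowest for HIST1H4H, HIST1H4E and HIST4H4.

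The 33 members with a mean under 1 FPKM and a value above 0 may have rested on very few fragments. For 32 of them the values in all 3 libraries were whole multiples, up to 12 and within 0.06 of a step, of 1 shared step per gene, after allowing for step ratios of 0.999 (HDAC1 siRNA) and 1.019 (empty vector) against the NANOG library with GFP siRNA, taken from low genes. These are the largest steps that fit, so true fragment numbers may be multiples of them. HIST1H2BE was at 1 step in each library, and HIST1H2AH at 6 steps with HDAC1 siRNA, 5 steps with GFP siRNA and 1 step with empty vector. HIST1H4B was at 2, 6 and 1 steps, HIST1H3J at 0, 2 and 7 steps and HIST1H4C at 5, 2 and 5 steps in the same order. Together the 33 summed to 12.8, 10.99 and 10.2 FPKM. No difference of a single one of these genes is read here. Listed at 0 in every library were HIST1H1A, HIST1H2AA, HIST1H2BA, HIST1H2BB, HIST1H3I, HIST1H4F, HIST1H4G, HIST2H3C, HIST3H3, HIST1H2APS1 and HIST2H2BA. Whether low expression, depth, annotation or read mapping gave these values of 0 was not tested.

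The level of a member went along with the transcript end that GENCODE gives it. In 23 genes a model ran at least 100 bases past the stem-loop, and 16 of these (69.6%) averaged at least 1 FPKM, with a median of 2.28 FPKM. In 8 genes every model with a stem-loop ended nearer to it, and 2 of these reached 1 FPKM (HIST1H2BD and HIST1H2AE; median 0.677 FPKM). The remaining 40 genes had no stem-loop of the searched form in a model, and 9 of them (22.5%) reached 1 FPKM, with a median of 0.240 FPKM. In 35 of those 40 the longest model is a multiple of 3 bases, as a bare coding sequence is, so the absence tells nothing of the real end, and the most abundant members HIST1H2BK and HIST1H1C are among them. The 100-base limit was chosen after the lengths were seen, and longer models offer more sequence for fragments to map to, the part of which in these levels was not tested. The NANOG difference was 0.35 in the median over the 16 measured genes with a long model and 0.31 over the 9 with no stem-loop.

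**Figure D4:**
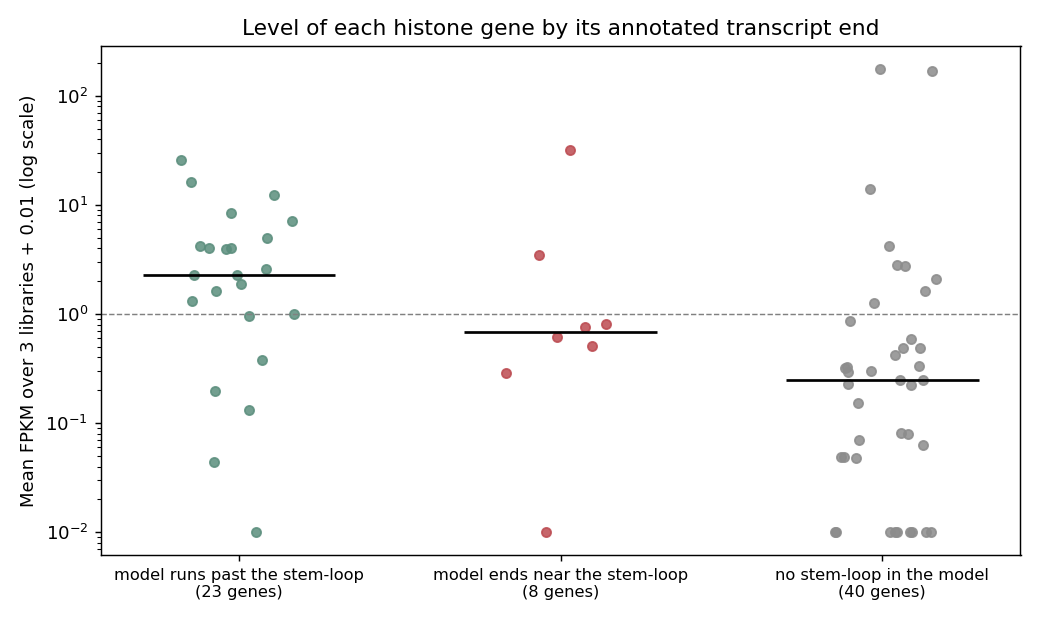
Mean FPKM over the 3 libraries (plus 0.01, log axis) of each of the 71 genes by its GENCODE transcript model, with a bar at the median and a dashed line at 1 FPKM. The models behind the FPKM values were not given and may differ. Of 23 genes whose model runs past the stem-loop 16 reach 1 FPKM, against 2 of 8 whose model ends near it and 9 of 40 with no stem-loop in the model; points at the bottom are genes listed at 0.

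Many H2A and H2B genes sit head to head and share the stretch between their starts. In GENCODE 12 such pairs had starts within 1000 bases of each other, at 124 to 331 bases. The partners were often far apart in level. HIST1H2BK was at 151, 214 and 162 FPKM, while its partner HIST1H2AH was at 0.714, 0.593 and 0.121 FPKM in the NANOG cells given HDAC1 siRNA, NANOG cells with GFP siRNA and empty vector cells. HIST3H2A was at 29.8, 25.04 and 23.3 FPKM against 1.02, 1.13 and 0.809 FPKM for HIST3H2BB. HIST1H2AC and HIST1H2BC were close, at means of 16.3 and 12.3 FPKM, and so were HIST1H2AE and HIST1H2BG at 3.50 and 4.05 FPKM.

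Differences of partners could be set side by side in 5 pairs with both genes at a mean of 1 FPKM. For NANOG against empty vector HIST1H2AG and HIST1H2BJ were at 0.63 and 0.90, HIST1H2AC and HIST1H2BC at 0.49 and 0.94, and HIST1H2AE and HIST1H2BG at 0.20 and 0.23. HIST2H2AC and HIST2H2BE went opposite ways, at -0.48 and 0.58. HIST1H2AM was at 0.31 and HIST1H2BO at -0.02, which is no difference in whole steps, since HIST1H2BO fitted 6 in both libraries. Between HDAC1 and GFP siRNA HIST2H2AC and HIST2H2BE were at 0.31 and -0.53, HIST1H2AM and HIST1H2BO at -0.18 and 0.17, and HIST1H2AE and HIST1H2BG at -0.02 and 0.10, each with 1 partner above 0 and 1 below it. The direction of HIST1H2BO is not taken as reliable. HIST1H2AC and HIST1H2BC, at -0.43 and -0.41, and HIST1H2AG and HIST1H2BJ, at -0.33 and -0.46, were both below 0.

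**Figure D5:**
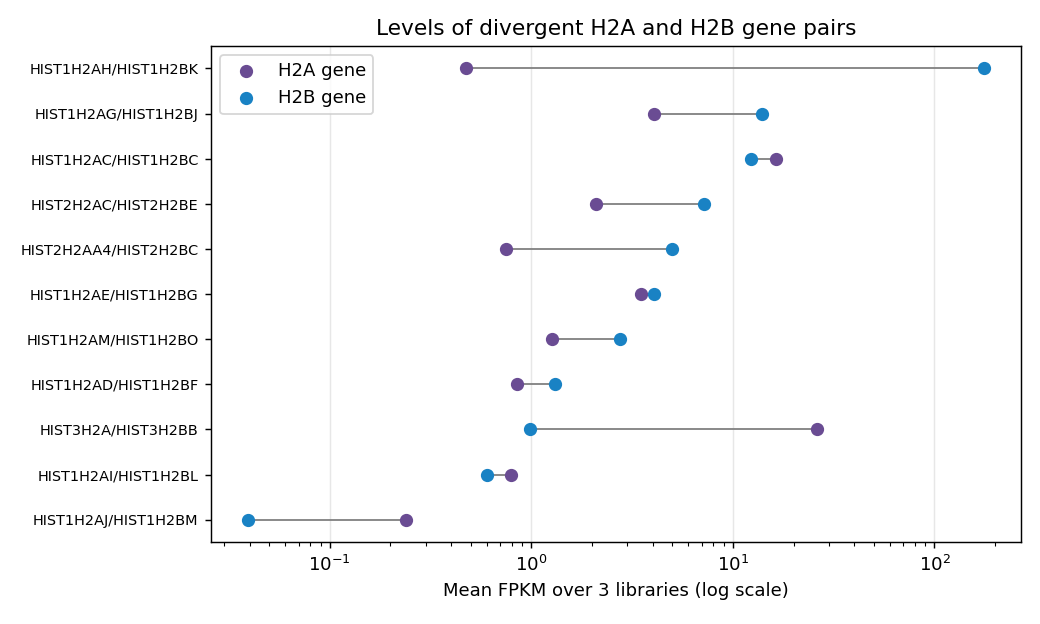
Mean FPKM over the 3 libraries on a log axis for the H2A and the H2B gene of each head-to-head pair with both genes above 0. The widest gap is HIST1H2AH with HIST1H2BK (0.476 and 176 FPKM), and HIST1H2AE with HIST1H2BG is among the narrowest (3.50 and 4.05 FPKM).

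Upstream sequences show what these promoters share. RefSeq (GRCh38.p14, not the hg19 build of the values) gave a promoter for 63 of the 71 genes, of which the 250 bases before the start were searched on both strands. CCAAT, the letters bound by NF-Y, was in 53 of 63 members (84.1%) and in 32.0% of all 35116 promoters. TATAA, a core of the TATA box, was in 57 members (90.5%), against 18.9% of all promoters. A match on the other strand only, as in HIST1H2BN, need not be the TATA box of that gene. ATTTGCAT, the octamer bound by POU factors such as OCT1, was in 25 members (39.7%), against 1.63%. All 25 belonged to H2A (11 of 15) or H2B (14 of 18), the classes that share head-to-head promoters. The windows of head-to-head partners overlap, so a site can count for both, as 1 octamer did for HIST1H2AC and HIST1H2BC. The member counts of these letters are therefore not counts of separate sites or independent promoters. CCAAT was in 3 of 13 H4 promoters and in all 6 of H1. TAATGG, a short form of the letters that NANOG binds, was in 3 members (4.76%) and in 5.90% of all promoters.

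The upstream 250 bases are shown for the most abundant members and for the H2B and H4 genes with large differences between NANOG and empty vector cells, all on the minus strand of chromosome 6: HIST1H1C at chr6:26056471-26056720, HIST1H2BK at chr6:27146856-27147105, HIST1H2BJ at chr6:27132796-27133045 and HIST1H4H at chr6:26285535-26285784. Capitals mark the searched letters on either strand, which can overlap.
HIST1H1C: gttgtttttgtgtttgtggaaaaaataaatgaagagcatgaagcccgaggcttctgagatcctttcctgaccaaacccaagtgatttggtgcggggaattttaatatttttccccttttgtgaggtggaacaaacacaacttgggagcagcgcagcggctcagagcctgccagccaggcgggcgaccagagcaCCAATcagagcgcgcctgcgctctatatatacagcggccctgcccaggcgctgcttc
HIST1H2BK: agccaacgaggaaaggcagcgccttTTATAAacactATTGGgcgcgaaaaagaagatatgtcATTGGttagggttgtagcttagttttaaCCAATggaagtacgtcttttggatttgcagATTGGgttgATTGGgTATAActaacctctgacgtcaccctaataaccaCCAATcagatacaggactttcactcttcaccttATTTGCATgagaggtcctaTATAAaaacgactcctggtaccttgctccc
HIST1H2BJ: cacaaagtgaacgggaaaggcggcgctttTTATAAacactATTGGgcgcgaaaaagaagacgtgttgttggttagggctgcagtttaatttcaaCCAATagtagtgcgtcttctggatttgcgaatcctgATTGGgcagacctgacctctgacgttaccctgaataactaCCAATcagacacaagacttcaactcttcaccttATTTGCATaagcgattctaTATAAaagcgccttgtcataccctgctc
HIST1H4H: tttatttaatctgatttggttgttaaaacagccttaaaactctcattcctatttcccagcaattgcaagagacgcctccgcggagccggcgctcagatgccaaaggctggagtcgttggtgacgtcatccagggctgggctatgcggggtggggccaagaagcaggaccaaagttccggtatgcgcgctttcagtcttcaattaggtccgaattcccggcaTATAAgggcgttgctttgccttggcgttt
HIST1H2BK and HIST1H2BJ hold the octamer and several CCAAT matches at like places, although HIST1H2BK stood far above HIST1H2BJ in every library. HIST1H4H holds TATAA and no CCAAT or octamer. A match describes the letters and shows no binding.

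Genes that make, process and carry histones were set beside the members. Of all genes 49.2% lay above 0 in the NANOG comparison and 53.4% in that of HDAC1 siRNA in NANOG cells, and the shares of all genes past 2-fold are those given above for each comparison. Replication-independent histones are mostly, though not all, made throughout the cell cycle from polyadenylated messages, and for H3 their listed FPKM was far higher. H3F3B, which encodes H3.3, was at 213 FPKM with HDAC1 siRNA, 217 FPKM with GFP siRNA in NANOG cells and 183 FPKM in empty vector cells. All H3 members together were at 17.8, 16.2 and 13.5 FPKM in that order. How fully these libraries captured messages without a poly(A) tail was not tested, so true message numbers may differ less. H3F3A, which also encodes H3.3, was at 3.48, 5.18 and 3.43 FPKM, an uncertain value because processed copies of this gene lie elsewhere in the genome. Of 11 such genes averaging at least 1 FPKM, 6 lay above 0 for NANOG against empty vector (median 0.00) and 5 for HDAC1 siRNA against GFP siRNA (median -0.01), with 0 past 2-fold.

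NPAT, the cofactor that switches on histone genes at the start of S phase, was at 4.17 FPKM with HDAC1 siRNA, 3.87 FPKM with GFP siRNA in NANOG cells and 4.03 FPKM in empty vector cells. Its list of transcription regulators had 3 of 8 genes above 0 for NANOG (median -0.01) and 6 of 8 for HDAC1 siRNA (median 0.07). CCNE1, which encodes cyclin E1, the partner of CDK2 in activating NPAT, was at 9.45, 8.63 and 5.91 FPKM, the 1 gene of this list past 1.5-fold, for HDAC1 siRNA in NANOG cells against empty vector (0.60). SLBP was at 43.7, 47.3 and 47.2 FPKM, and 17 of 24 genes of 3′ end processing lay above 0 for NANOG (median 0.10) and 12 of 24 for HDAC1 siRNA (median -0.01). ERI1, an exonuclease that trims the stem-loop, was at 7.21, 6.88 and 6.34 FPKM, and 11 of 17 genes of histone mRNA decay lay above 0 for NANOG (median 0.09) and 6 of 17 for HDAC1 siRNA (median -0.02). In these 3 lists 0 genes were 2-fold higher or lower in any comparison.

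Among histone chaperones, 14 of 21 genes lay above 0 for NANOG (median 0.12) and 7 of 21 for HDAC1 siRNA (median -0.07), with 0 past 2-fold. On the FPKM scale most of them thus stood lower with HDAC1 siRNA, as most of the measured histone genes did. After rescaling to TPM over all symbols the HDAC1 siRNA median was 0.10 for chaperones, 0.05 for the histone members and 0.18 over all genes. NASP, which carries H3 and H4, was at 57.5 FPKM with HDAC1 siRNA, 63.7 FPKM with GFP siRNA in NANOG cells and 56.02 FPKM in empty vector cells. IPO4, the importin of H3 and H4, was at 5.63, 8.86 and 4.78 FPKM (0.77 for NANOG against empty vector). ASF1A, a chaperone of H3 and H4, was at 17.2, 16.5 and 10.8 FPKM, which is 0.62 for HDAC1 siRNA in NANOG cells against empty vector, and CABIN1, a subunit of the HIRA complex, at 10.9, 11.98 and 17.5 FPKM (-0.64).

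S phase genes had 14 of 24 members above 0 for NANOG (median 0.02) and 15 of 24 for HDAC1 siRNA (median 0.04), with 0 past 2-fold. PCNA, the sliding clamp of DNA polymerases, was at 200.4 FPKM with HDAC1 siRNA, 236 FPKM with GFP siRNA in NANOG cells and 234 FPKM in empty vector cells. RRM2, a subunit of ribonucleotide reductase, was at 81.6, 92.5 and 54.1 FPKM and was the gene of this list past 1.5-fold (0.76 for NANOG against empty vector). The share of cells in S phase was not measured, and its part in the histone differences was not tested.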

How the data were processed

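The 3 groups of CaSki cells, each with 1 total RNA library, were taken from the sample titles. Trizol was used for the RNA, of which 2 ug entered library preparation with a stranded TruSeq kit for total RNA, per the labels' protocols. The authors deposited FPKM values, 1 per symbol and library; TopHat2, Cufflinks and hg19 are named, with no roles, per the submitters' processing notes. Versions, annotation, read length and strand setting were not given in the sources used here. FPKM divides by the annotated transcript length and mapped fragments, so a wrong model length or a few very abundant RNAs shift a value. The values summed to 600749 FPKM (NANOG, HDAC1 siRNA), 681947 FPKM (NANOG, GFP siRNA) and 660990 FPKM (empty vector); absolute depth is unknown, so no interval is given.

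Differences of log2(FPKM + 1) were computed for 11406 genes averaging at least 1 FPKM, without 1628 small RNA symbols. There was no test. Named were all members with that mean, extremes of each class, and of each of 6 lists genes past 1.5-fold and the key genes (H3F3A, H3F3B, NPAT, SLBP, ERI1, NASP and PCNA); members in the head-to-head, stem-loop and low-value passages were also chosen after their values were seen. Members, lists and comparisons were chosen with earlier results of these data known. The differences and 2-fold calls were run on simulated data with known, larger changes, which only checks the computation. The fits to whole steps and the sequence searches were not simulated. Members were matched by symbol to GENCODE 29 (71) and RefSeq (71; 63 with a promoter). Python 3.11.15, numpy 2.4.6, pandas 2.3.3 and matplotlib 3.10.9 were used.

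Alternatives tried were a pseudocount of 0.1 or 0.5 FPKM, a filter at a mean of 5 FPKM or none, and 4 scalings. Thresholds of 1.5-fold and 3-fold were also tried. Near-identical duplicate genes were left out in turn, as were testis symbols with the pseudogenes HIST1H2APS1 and HIST2H2BA, but not HIST2H2BC. Each duplicate, testis or pseudogene symbol left out had a mean under 1 FPKM, so the counts and medians of the 27 members could not change. Leaving out the most abundant pair and rescaling the gene lists were added after seeing the data.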

Additional observations from a re-analysis of the deposited data

How the results depend on the processing

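No paired analysis was possible because each group has 1 library. The medians and summed ratios given here count as moved when they differ by 0.1 or more on the log2 scale, and counts when they differ by over 1.5 times. For NANOG against empty vector, 23 of 27 members stayed above 0 under all 4 scalings, with medians of 0.31 to 0.35. With no filter on low values 38 of 60 members lay above 0 (median 0.17), and with a mean of at least 5 FPKM 9 of 9 did (median 0.49). In the other comparisons no filter put 30 of 60 (HDAC1 siRNA against GFP siRNA, median 3.88e-06) and 39 of 60 (HDAC1 siRNA in NANOG cells against empty vector) above 0, and the filter at 5 FPKM put 1 (median -0.41) and 8 of 9 above 0. Members past 2-fold, which numbered 1, 0 and 1 in NANOG against empty vector, HDAC1 siRNA against GFP siRNA and HDAC1 siRNA in NANOG cells against empty vector, numbered 4, 1 and 3 with a pseudocount of 0.1 FPKM. With 0.5 FPKM they were 1, 1 and 2, and with either TPM scaling also 1, 1 and 2. At 1.5-fold they were 6, 1 and 5, at 3-fold 0 in each, and 0 in the last comparison at a mean of at least 5 FPKM. TPM over all symbols moved the median to 0.047 and the summed ratio to 0.922 for HDAC1 siRNA against GFP siRNA, and to 0.31 and 1.18 against empty vector. Without HIST1H2BK and HIST1H1C the summed ratios were 0.928 and 1.26. The same TPM scaling moved the medians of the 6 gene lists for HDAC1 siRNA against GFP siRNA to 0.17 (replication-independent histones), 0.24 (transcription), 0.17 (3′ end processing), 0.15 (decay), 0.10 (chaperones) and 0.22 (S phase), beside 0.18 over all genes. Against empty vector they became 0.19, 0.089, 0.22, 0.18, 0.11 and 0.17, beside 0.13 over all genes. This scaling divides each library by its summed FPKM, which was lowest with HDAC1 siRNA (600749 FPKM). It therefore raises nearly all genes of that library against the others by a similar amount. Why the summed FPKM differed was not tested. Depth limits the members under 1 FPKM, which may rest on a few fragments each. Among the measured members the values of HIST1H3B, HIST1H3E, HIST1H2BO and HIST1H2BN also fitted few whole steps, though the fragments per step are unknown.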
